A study of Mus musculus with 2 samples.

Results

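The genes described here are the potassium channel genes of the embryonic right atrium, taken as all rows whose gene symbol starts with Kcn, without Kcnj3 and Kcnj5. They were 89 of the 21225 genes on the array, 88 of them protein coding and 1 the antisense RNA gene Kcnmb4os1, which encodes no channel subunit. The rule uses gene symbols and no measured value, but it was set with earlier results of these data known. The 2 groups were right atria of Shox2-/- embryos and of wildtype embryos at E11.5, both in the CD-1 outbred background, and the dissected tissue held the sinus venosus myocardium, in which Shox2 is expressed, and the venous valves. For each genotype 1 Affymetrix array was hybridized with RNA pooled from 6 embryos of 2 pregnancies, so that the spread between embryos is not known, and no error, test or p-value is given for any difference. In such pools fewer cells of a type and less RNA per cell cannot be told apart.

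Potassium channels let potassium leave the cell along its gradient. In heart muscle they end the action potential and hold the resting potential, and in sinoatrial pacemaker cells a small inward rectifier current leaves room for the slow depolarization that starts each beat. The voltage-gated α subunits, among them the Kcnq subunits, open on depolarization, the inward rectifiers (Kcnj) pass current best near the resting potential, the Kcnk subunits carry a pair of pore domains each and conduct a background current, and the Kcnma and Kcnn subunits answer to intracellular calcium. Accessory subunits (Kcnab, Kcne, Kcnip, Kcnmb) do not form a pore and change the gating or the surface level of their partners. The rule gave 33 voltage-gated genes outside Kcnq (Kcna to Kcnd, Kcnf to Kcnh, Kcns and Kcnv), 3 Kcnq, 13 Kcnj, 14 Kcnk, 8 calcium- or sodium-activated genes (Kcnma, Kcnn, Kcnt and Kcnu) and 17 accessory genes. The last but one of these groups and the place of Kcns and Kcnv were set here, since the rule did not name them.

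The values are log2 expression values, and a difference was taken for each gene by subtracting its wildtype value from its Shox2-/- value. Levels of different genes come from different probes and are not set against each other. As a measure of background, 1291 odorant and vomeronasal receptor genes were taken, whose 95th percentile was 6.97 on the Shox2-/- array and 6.78 on the wildtype array. Above this receptor level lay 52 of the 89 potassium channel genes on the Shox2-/- array and 60 on the wildtype array, and 27 lay above it on neither. The deposited values of the 89 genes ran between 6.28 and 9.03 on the Shox2-/- array and between 6.14 and 9.47 on the wildtype array. The targeted gene Shox2 was at 7.48 on the Shox2-/- array and at 8.43 on the wildtype array, a difference of −0.95. All 8 heart muscle markers, such as Tnnt2 and Myl7, lay above the receptor level on both arrays. So did all 7 endothelium, all 8 smooth muscle and pericyte and all 7 measured red blood cell markers. Of the 8 fetal liver markers 7 did so, and 7 of the 8 foregut and lung epithelium markers. Of the 5 sinoatrial markers, 3 were higher and 2 lower in Shox2-/-. Lower beside Shox2 was Isl1, at 7.53 on the Shox2-/- array and 7.95 on the wildtype array. Higher were the transcription factors Tbx18 (0.17) and Tbx3 (0.15) and the pacemaker channel Hcn4 (0.067).

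**Figure D1:**
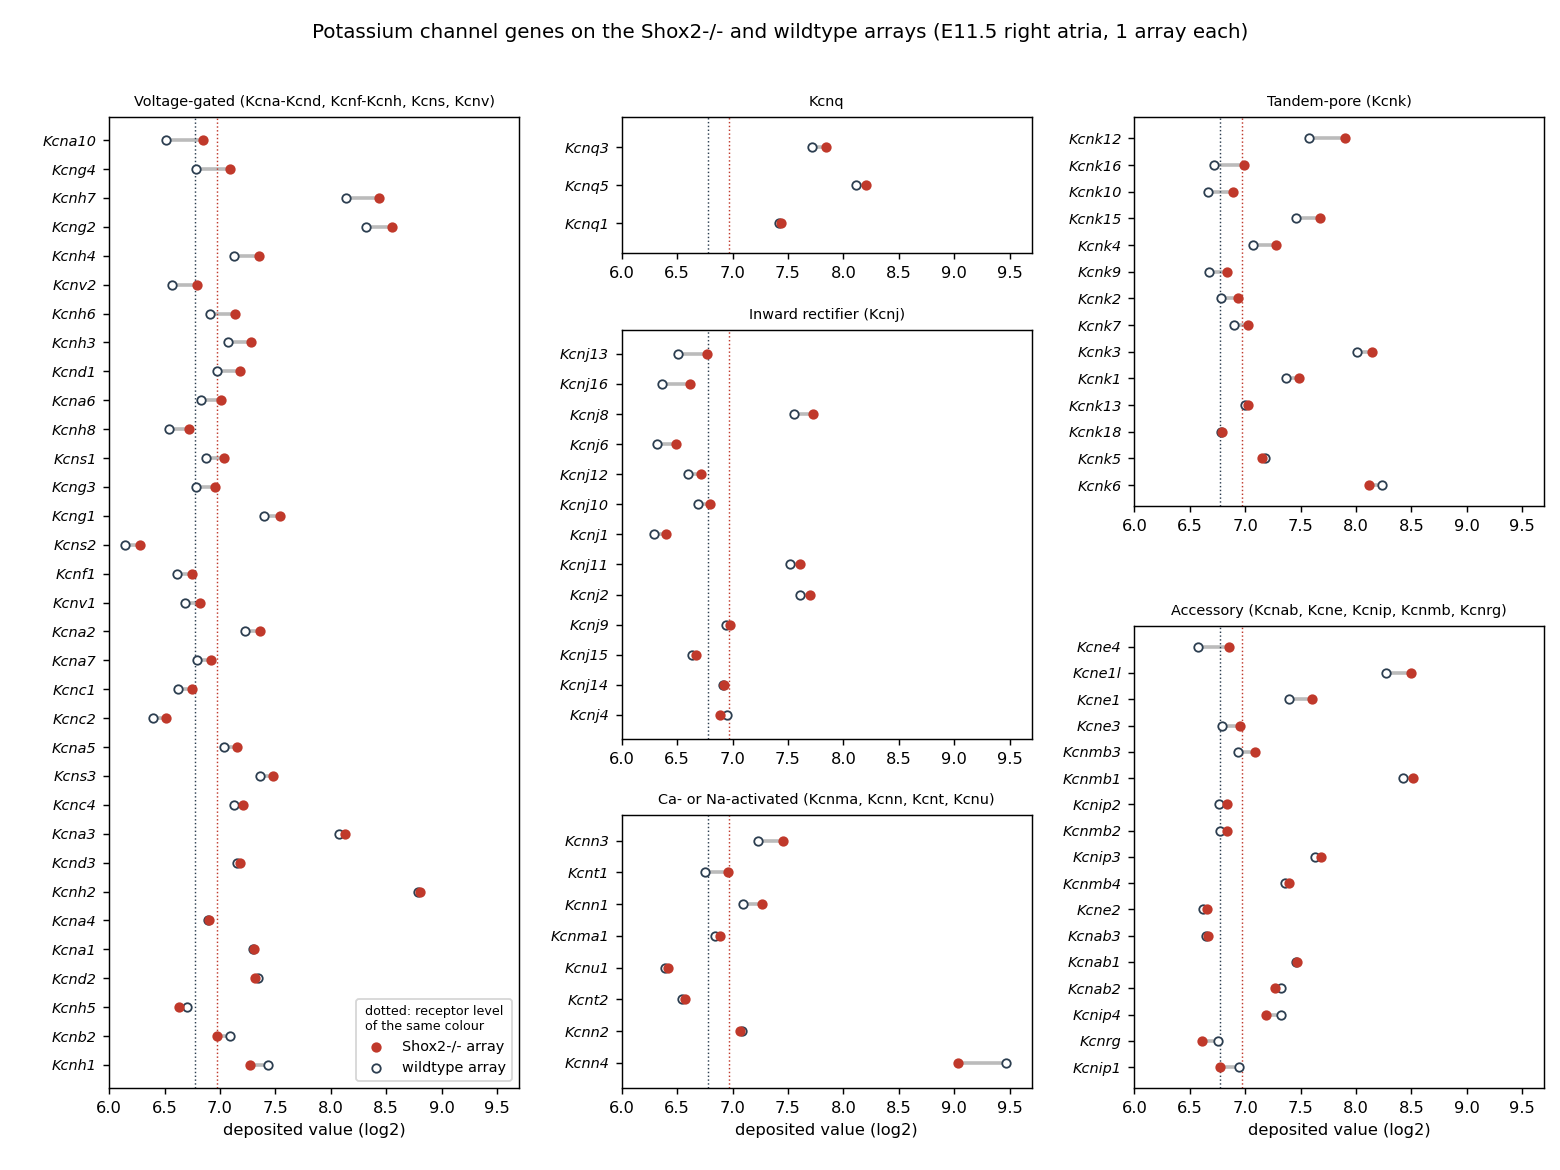
Deposited log2 values (x axis) of the 88 protein-coding potassium channel genes (rows, ordered by their difference within each group) on the Shox2-/- array (filled points) and the wildtype array (open points), with 1 array per genotype and no error bars. Dotted lines mark the receptor level of each array, 6.97 for Shox2-/- and 6.78 for wildtype, and the widest gap is that of Kcnn4, with 9.03 on the Shox2-/- array and 9.47 on the wildtype array.

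Most potassium channel genes had slightly higher values on the Shox2-/- array, and 1, Kcnn4, was past a size threshold. The thresholds were those of the study, a log2 difference of at least 0.35 or of −0.4 or less, used here on size alone. At or above 0.35 there was none of the 89 genes, where 1.13% of all genes were. At or below −0.4 there was 1 of 89 (1.12%), against 1.78% of all genes. Both shares are too near to those of all genes to be a result about potassium channels. Above 0 were 76 of the 89 differences (85.4%), against 54.9% of all genes, and the median difference was 0.12, against 0.021 over all genes. The receptor genes, however, had a median of 0.12 as well, and 83.7% of them were above 0. Genes of low level as a whole had higher values on the Shox2-/- array. Of 10 bins of all genes from low to high level, bin 3 had a median difference of 0.12 and bin 9 one of −0.089, and 65 of the 89 potassium channel genes fell into bins 3 to 5. With a smooth trend of the difference on the level removed, 58 of 89 (65.2%) were above 0, against 50.6% of all genes and 64.8% of receptor genes, and the median was 0.056, against 0.0018 over all genes and 0.035 over the receptor genes. With the trend removed, 1 gene, Kcnh7, was at or above 0.35 (0.952% of all genes), and none was at or below −0.4 (1.5% of all genes).

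The differences of the 89 genes were small. As deposited, there were 22 genes at 0.2 or more and only Kcnn4 at −0.2 or less, while 32 genes differed by less than 0.1 in either direction. The shares of all genes and of receptor genes at these sizes were not counted. The upper quartile of the differences was 0.18 for the 89 genes, 0.19 for the receptor genes and 0.13 for all genes. The excess of higher over lower genes at these sizes was not kept with the trend removed. At 0.2 or more were then Kcnh7 (0.35), Kcnk12 (0.34), Kcng2 (0.31), Kcne1l (0.29), Kcna10 (0.22) and Kcnk15 (0.20). At −0.2 or less were Kcnn4 (−0.35), Kcnip1 (−0.28), Kcnrg (−0.25), Kcnb2 (−0.21) and Kcnh1 (−0.21). As deposited, the standard deviation across the 89 genes was 0.13, against 0.18 over all genes and 0.13 over the receptor genes, where genes are not replicates. With the trend removed it was 0.135, against 0.160 over all genes and 0.124 over the receptor genes.

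**Figure D2:**
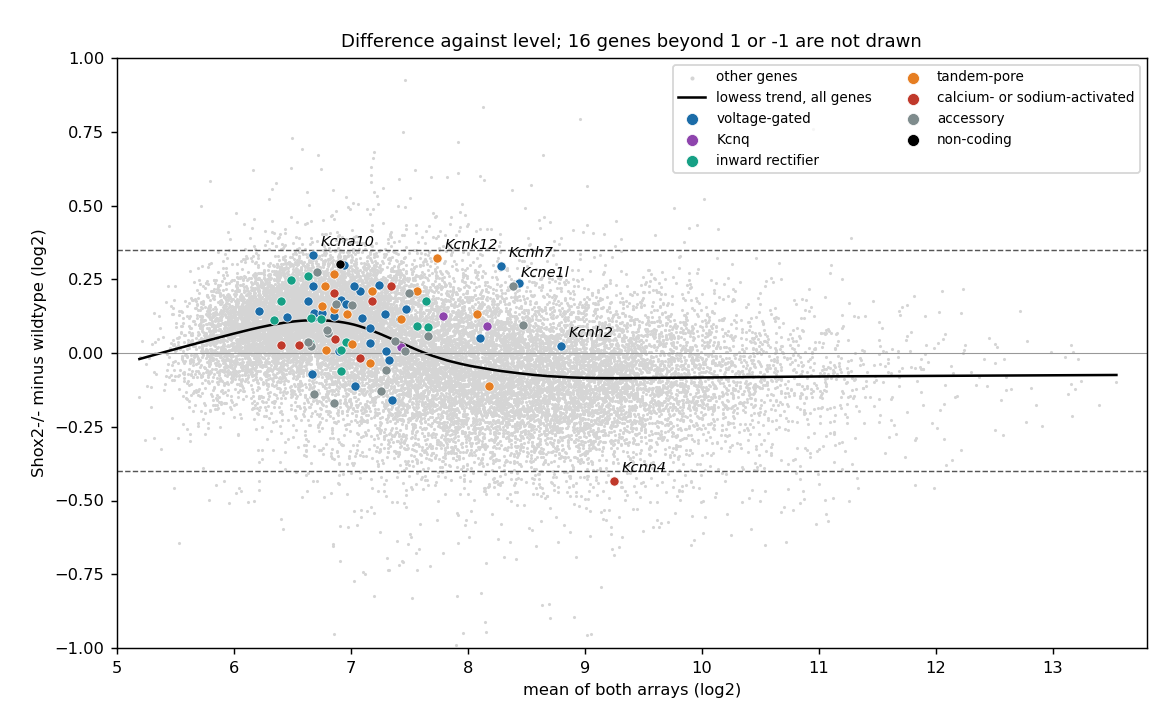
Difference of Shox2-/- minus wildtype (y axis, log2) against the mean of both arrays (x axis, log2) for all genes (grey) and the 89 potassium channel genes (coloured by group), with 16 genes of larger difference outside the frame. The black line is the lowess trend over all genes and dashed lines are the thresholds of 0.35 and −0.4, of which the lower is passed by Kcnn4 alone among the coloured points.

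Some of the sequence before the start of 3 of these genes is shown, since they had the lowest difference (Kcnn4), the difference that passed 0.35 once the trend was removed (Kcnh7) and the highest positive difference among genes above the receptor level (Kcnk12). The windows are the 250 bases before the annotated start in RefSeq (GRCm38.p6), 5′ to 3′ on the strand of the gene, at chr7:24370013-24370262 on the plus strand for Kcnn4, chr2:63184288-63184537 on the minus strand for Kcnh7 and chr17:87797995-87798244 on the minus strand for Kcnk12. They were searched on both strands for TAAT, a core of many homeodomain binding sites, and for GATA, the core of GATA factor sites. TAAT and GATA can share at most 2 letters with each other. AATT, which the paper found essential for SHOX2 binding at ISL1, was not counted over the windows and is not marked. It can be read in the Kcnh7 window (gagaaattggcg) and not in the other windows shown. Its share over all windows is not known. Capitals mark a match.
Kcnn4: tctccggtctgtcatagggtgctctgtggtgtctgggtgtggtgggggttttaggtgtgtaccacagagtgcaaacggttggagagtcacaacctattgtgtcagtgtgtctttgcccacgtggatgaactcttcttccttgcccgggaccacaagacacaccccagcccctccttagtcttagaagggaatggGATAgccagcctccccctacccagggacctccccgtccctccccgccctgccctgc
Kcnh7: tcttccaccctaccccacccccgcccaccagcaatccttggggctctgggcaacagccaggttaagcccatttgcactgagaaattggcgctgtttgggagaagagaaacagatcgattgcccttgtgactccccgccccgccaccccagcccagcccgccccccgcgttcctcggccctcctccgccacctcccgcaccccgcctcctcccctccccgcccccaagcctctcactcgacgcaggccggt
Kcnk12: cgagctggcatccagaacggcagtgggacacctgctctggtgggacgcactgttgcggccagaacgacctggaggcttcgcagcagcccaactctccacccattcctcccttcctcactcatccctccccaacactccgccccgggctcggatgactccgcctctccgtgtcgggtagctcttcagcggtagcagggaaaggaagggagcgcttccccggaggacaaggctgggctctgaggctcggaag
TAAT was in none of the 3 windows, and GATA was found 1 time, before Kcnn4. Among 32851 windows of this length, 54.9% held TAAT and 53.6% held GATA. Among the 92 windows of 67 potassium channel genes in the table, 44.6% held TAAT and 47.8% held GATA, and their median GC content was 58.8%, against 52.4% for all windows. A match of 4 letters is a description of the window and does not show a site, and a window without one says nothing of a factor.

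Kcnn4 (Entrez gene 16534) encodes the calcium-activated channel of intermediate conductance, known as the Gardos channel of red blood cells and also made by lymphocytes and secretory epithelia. Its value was 9.03 on the Shox2-/- array and 9.47 on the wildtype array. The difference of −0.43, or 74.0% of the wildtype signal, placed it at rank 288 from the lowest of 21225 genes, and with the trend removed it was −0.35, no longer past the threshold. Markers of red blood cells were also lower on the Shox2-/- array. All 7 measured of 8 red cell markers lay above the receptor level on both arrays. As deposited, all 7 were at or below −0.4, with differences from −1.52 (Hbb-b1, an adult β-globin) to −0.43 (Hemgn). With the trend removed 6 of the 7 were at or below −0.4. Their summed linear signal was 6216 on the Shox2-/- array and 10731 on the wildtype array. The 8 markers of foregut and lung epithelium summed to 1769 on the Shox2-/- array and 2206 on the wildtype array, and 7 of the 8 were lower in Shox2-/-. All 8 fetal liver markers were lower too, with a sum of 2633 on the Shox2-/- array and 5987 on the wildtype array. Of the 5 sinoatrial markers, Shox2 (−0.95) and Isl1 (−0.42) were lower as well, while 3 were higher. The part of any of these cells in the Kcnn4 difference was not tested.

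**Figure D3:**
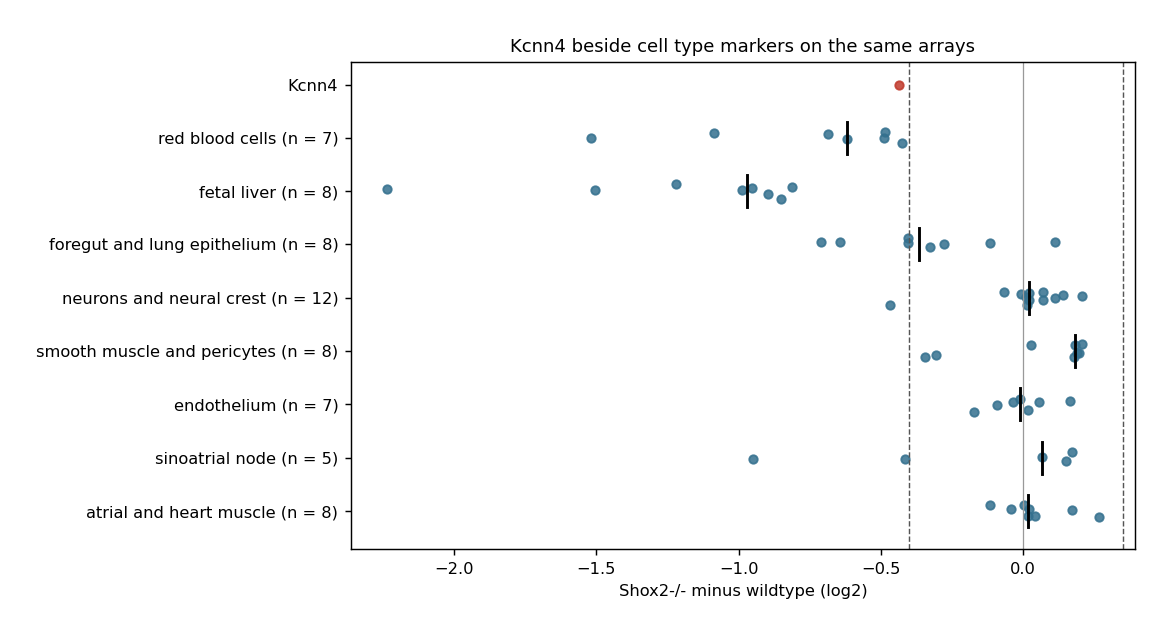
Differences of Shox2-/- minus wildtype (x axis, log2) of Kcnn4 and of the measured markers of each cell type (rows, 1 point a gene, vertical bars the median of a list), with dashed lines at 0.35 and −0.4. Kcnn4 at −0.43 lies at the upper end of the red blood cell markers, which run from −1.52 to −0.43.

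The other calcium- and sodium-activated genes were near 0 or above it. Of the small-conductance channels, which shape atrial repolarization and pacemaker rate, Kcnn3 was at 7.46 on the Shox2-/- array and 7.23 on the wildtype array (0.23), Kcnn1 at 7.27 on the Shox2-/- array and 7.09 on the wildtype array (0.18), and Kcnn2 at 7.06 on the Shox2-/- array and 7.08 on the wildtype array (−0.018). None of these 3 genes came near the difference of Kcnn4. Kcnma1, the pore subunit of the large-conductance calcium-activated channel, had 6.89 on the Shox2-/- array, below the receptor level, and 6.84 on the wildtype array, above it (0.047, or −0.061 with the trend removed). The sodium-activated Kcnt1 and Kcnt2 and the sperm channel gene Kcnu1 had differences of 0.21, 0.026 and 0.029, with no value above the receptor level. The median of the group was 0.038, or −0.067 with the trend removed.

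Of the 33 voltage-gated genes outside Kcnq, 29 had a difference above 0, with a median of 0.13 (0.065 once the trend was taken out), and none was past a threshold as deposited. Kcnh2, the pore subunit of the rapid delayed rectifier of the heart, stood at 8.81 on the Shox2-/- array and 8.78 on the wildtype array. The values of this gene were thus nearly the same as deposited, with a difference of 0.024, which was 0.11 with the trend removed. Kcnh7, a relative of Kcnh2 mainly known from the nervous system, had 8.43 on the Shox2-/- array and 8.14 on the wildtype array, a difference of 0.29, and of 0.35 with the trend removed. Among 12 measured markers of neurons and neural crest, 9 were higher in Shox2-/-, with a median of 0.019, whereas 3 of 12 were higher once the trend was taken out, with a median of −0.046. The largest of their differences was that of Dbh, an enzyme of noradrenaline synthesis, at −0.47, with 7.04 on the Shox2-/- array and 7.51 on the wildtype array. Their summed signal was 1964 on the Shox2-/- array and 1927 on the wildtype array, and their part in the Kcnh7 difference was not tested. Kcnh1, of the ether-à-go-go branch, had the lowest difference of the group, with 7.27 on the Shox2-/- array and 7.43 on the wildtype array (−0.16). The 8 Kcnh genes had differences from −0.16 to 0.29, of which 6 were above 0.

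The subunits of the cardiac transient outward current, which starts repolarization, were nearly level. Kcnd2 had 7.32 on the Shox2-/- array and 7.34 on the wildtype array (−0.023), and Kcnd3 had 7.18 on the Shox2-/- array and 7.15 on the wildtype array (0.034). Kcna4, which carries a slower form of this current, had 6.90 on the Shox2-/- array and 6.89 on the wildtype array (0.0065), and only its wildtype value lay above the receptor level. Kcnd1, a relative expressed mainly outside heart muscle, had 7.18 on the Shox2-/- array and 6.97 on the wildtype array (0.21). With the trend removed, Kcnd1 was at 0.12, Kcnd2 at −0.075, Kcnd3 at −0.045 and Kcna4 at −0.10, so that only Kcnd1 was then above 0. Kcna5, the subunit of the ultrarapid delayed rectifier of atria, had 7.15 on the Shox2-/- array and 7.04 on the wildtype array, a difference of 0.12, or 0.029 with the trend removed. All 8 Kcna genes had a difference above 0, from 0.0057 for Kcna1 to 0.33 for Kcna10, where 83.7% of receptor genes were above 0. With the trend removed 6 of the 8 were above 0, against 64.8% of receptor genes. Kcna10, at 6.84 on the Shox2-/- array and 6.51 on the wildtype array, was the nearest to the upper threshold of all 89 genes, but neither value lay above the receptor level.

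The electrically silent subunits (Kcnf, Kcng, Kcns and Kcnv), which conduct only when assembled with Kcnb subunits, were above 0 in 10 of 10 genes, both as deposited (0.12 to 0.30) and with the trend removed (0.023 to 0.31). Above 0 were 54.9% of all genes and 83.7% of receptor genes as deposited, and 50.6% and 64.8% of them once the trend was taken out, and 4 of the 10 silent genes (Kcnf1, Kcns2, Kcnv1 and Kcnv2) lay below the receptor level on both arrays. Kcng2, at 8.55 on the Shox2-/- array and 8.31 on the wildtype array, and Kcng4, at 7.09 on the Shox2-/- array and 6.79 on the wildtype array, had differences of 0.24 and 0.30. With the trend removed these were 0.31 and 0.20. Their partner Kcnb2, by contrast, was at 6.98 on the Shox2-/- array and 7.09 on the wildtype array, a difference of −0.11. The 3 Kcnc genes of the fast delayed rectifiers differed by 0.085 to 0.12, and by 0.0065 to 0.019 with the trend removed. Of these, Kcnc1 and Kcnc2 lay below the receptor level on both arrays.

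All 3 Kcnq genes lay above the receptor level on both arrays and were slightly higher on the Shox2-/- array as deposited. Kcnq1, which forms the slow delayed rectifier of the heart with Kcne1, had 7.44 on the Shox2-/- array and 7.42 on the wildtype array, a difference of 0.021, which turned to −0.013 with the trend removed. Kcnq3, at 7.85 on the Shox2-/- array and 7.72 on the wildtype array, differed by 0.13, and Kcnq5, at 8.21 on the Shox2-/- array and 8.11 on the wildtype array, differed by 0.092. Both are known from the M current of neurons and smooth muscle, and both were at 0.15 with the trend removed.

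Inward rectifier genes were higher on the Shox2-/- array in 12 of 13, where 83.7% of receptor genes were higher. With the trend removed 9 of the 13 were above 0, against 64.8% of receptor genes. The median of the group was 0.11, which was 0.013 once the trend was removed. Kcnj2, the main subunit of the current that holds the resting potential of working heart muscle, had 7.70 on the Shox2-/- array and 7.61 on the wildtype array (0.090). Its relative Kcnj12 had 6.72 on the Shox2-/- array and 6.60 on the wildtype array (0.12), both below the receptor level, and was at 0.0067 with the trend removed. Kcnj14 differed by 0.010 (−0.095 with the trend removed), with 6.92 on the Shox2-/- array and 6.91 on the wildtype array. Kcnj4, the lowest of the group, differed by −0.062 (−0.17 with the trend removed), with 6.88 on the Shox2-/- array and 6.95 on the wildtype array. For both genes only the wildtype value lay above the receptor level.

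The pore subunits of the ATP-sensitive channel, which opens when cellular energy falls, are Kcnj8 and Kcnj11. Kcnj8, known from pericytes, smooth muscle and heart, had 7.73 on the Shox2-/- array and 7.55 on the wildtype array, a difference of 0.18 with and without the trend. Kcnj11 had 7.61 on the Shox2-/- array and 7.52 on the wildtype array (0.091). Their sulfonylurea receptor partners lie outside the rule. Abcc9 had 8.69 on the Shox2-/- array and 8.39 on the wildtype array, a difference of 0.30, which was 0.38 with the trend removed and then past the upper threshold. Abcc8 had 7.44 on the Shox2-/- array and 7.25 on the wildtype array (0.19). The 4 genes of this channel were higher on the Shox2-/- array by 0.091 to 0.30. Of receptor genes, whose median value on that array was only 6.23, 83.7% were higher too. With the trend removed Kcnj11 was at 0.080 and Abcc8 at 0.14. Of 8 smooth muscle and pericyte markers 6 were higher as well, with a median of 0.18, the highest at 0.21 (Tagln) and the lowest at −0.34 (Myh11). Their summed signal was 8830 on the Shox2-/- array and 8300 on the wildtype array, and their part in these differences was not tested. The G protein-gated subunits left out by the rule had 8.54 on the Shox2-/- array and 8.66 on the wildtype array for Kcnj3 (−0.12), and 9.17 on the Shox2-/- array and 9.10 on the wildtype array for Kcnj5 (0.065).

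Of 14 Kcnk genes, 12 were higher on the Shox2-/- array, where 83.7% of receptor genes were higher. With the trend removed 10 of the 14 were above 0, against 64.8% of receptor genes. The median difference of the group was 0.14, or 0.066 with the trend removed. Kcnk12, a halothane-inhibited subunit that gives little current by itself, had the highest positive difference as deposited among genes above the receptor level, with 7.90 on the Shox2-/- array and 7.58 on the wildtype array (0.32, or 0.34 with the trend removed), just short of the threshold of 0.35. Kcnk3, the acid-sensitive background channel of atrial muscle, had 8.14 on the Shox2-/- array and 8.01 on the wildtype array, a difference of 0.13, or 0.18 with the trend removed. The other heart background channels were close to this as deposited, and lower than it with the trend removed. Kcnk1 had 7.49 on the Shox2-/- array and 7.37 on the wildtype array (0.12, or 0.083 with the trend removed). The stretch-sensitive Kcnk2 had 6.93 on the Shox2-/- array, below the receptor level, and 6.78 on the wildtype array, just above it. Its difference was 0.15, or 0.040 with the trend removed. Kcnk16, an alkaline-activated channel best known from the pancreas, had 6.99 on the Shox2-/- array and 6.72 on the wildtype array (0.27), where the wildtype value lay below the receptor level. Kcnk6, at 8.12 on the Shox2-/- array and 8.23 on the wildtype array (−0.11), and Kcnk5, at 7.15 on the Shox2-/- array and 7.18 on the wildtype array (−0.035), were the 2 lower genes of the group.

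The accessory genes are given by family, with no test between families. All 5 Kcne genes, whose small membrane proteins join Kcnq1, Kcnh2 and other α subunits, were higher on the Shox2-/- array, with a median of 0.20 and 4 of 5 above 0 with the trend removed. This count stands beside 83.7% of receptor genes above 0, and 2 of the 5 lay above the receptor level on both arrays. Kcne1, the partner of Kcnq1, had 7.60 on the Shox2-/- array and 7.40 on the wildtype array, a difference of 0.20, or 0.18 with the trend removed. Kcne1l, the X-linked family member also called Kcne5, had 8.50 on the Shox2-/- array and 8.27 on the wildtype array (0.23, or 0.29 with the trend removed). Kcne3 had 6.96 on the Shox2-/- array, just below the receptor level, and 6.79 on the wildtype array, just above it. Its difference was 0.17, or 0.060 with the trend removed. The other two, Kcne4 (0.27) and Kcne2 (0.039, or −0.072 with the trend removed), had no value above the receptor level, with 6.85 and 6.65 on the Shox2-/- array and 6.58 and 6.62 on the wildtype array.

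The Kcnip genes, which encode calcium-binding partners of Kcnd channels, ran from −0.17 to 0.078. Kcnip1, at 6.77 on the Shox2-/- array and 6.94 on the wildtype array (−0.17), had the lowest difference after Kcnn4, but its Shox2-/- value lay below the receptor level. Kcnip4 had 7.19 on the Shox2-/- array and 7.32 on the wildtype array (−0.13). Kcnip2, which the transient outward current of adult ventricles requires in mice, had 6.84 on the Shox2-/- array and 6.76 on the wildtype array (0.078, or −0.032 with the trend removed), both below the receptor level. The 3 Kcnab genes lay between −0.057 and 0.023, all of them below 0 once the trend was taken out, and the 4 Kcnmb genes between 0.039 and 0.16. Kcnmb1, the smooth muscle partner of Kcnma1, had 8.52 on the Shox2-/- array and 8.42 on the wildtype array (0.096). Kcnrg, a regulator of voltage-gated channels, had a difference of −0.14, with both values below the receptor level. Over the 17 accessory genes 13 were above 0, with a median of 0.056, and 7 were so once the trend was taken out, with a median of −0.022. Of receptor genes 83.7% were above 0 as deposited and 64.8% with the trend removed.

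**Figure D4:**
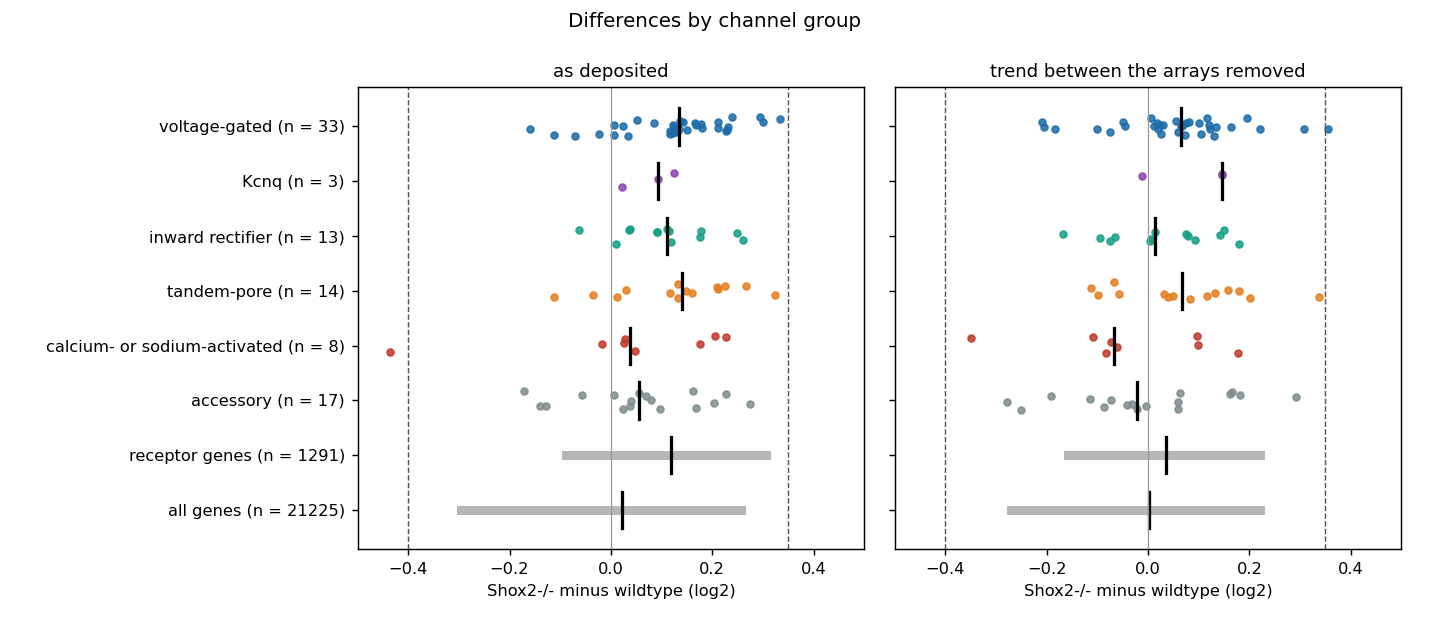
Differences of Shox2-/- minus wildtype (x axis, log2) of the 88 protein-coding potassium channel genes by group (rows, 1 point a gene), as deposited (left) and with the trend between the arrays removed (right), where black bars are medians, grey bars span the 5th to 95th percentile of receptor genes and of all genes, and dashed lines are the thresholds. The medians of the voltage-gated group are 0.13 (left) and 0.065 (right), and those of the accessory group are 0.056 and −0.022.

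The antisense RNA gene Kcnmb4os1 had 7.05 on the Shox2-/- array and 6.75 on the wildtype array, a difference of 0.30, or 0.20 with the trend removed. Its wildtype value lay below the receptor level. Kcnmb4 itself had 7.39 on the Shox2-/- array and 7.36 on the wildtype array (0.039), so that the antisense gene and its neighbour did not differ alike.

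Other genes of potassium transport were compared from lists. Of 10 channel partners outside the rule, 8 had a difference above 0, with a median of 0.22 (0.13 once the trend was taken out), and none was past a threshold as deposited. Above 0 as deposited were 54.9% of all genes and 83.7% of receptor genes. The largest was Lrrc26 (0.34), an auxiliary subunit of the Kcnma1 channel, with 7.23 on the Shox2-/- array and 6.89 on the wildtype array. Akap9, a scaffold of the Kcnq1 channel, was at −0.21 with 8.47 on the Shox2-/- array and 8.68 on the wildtype array. Of 18 pump, cotransporter and intracellular channel genes 14 were measured with a symbol, and 7 were higher and 7 lower in Shox2-/-, with a median of 0.016. Among them the sodium pump subunit Atp1b1 had 10.52 on the Shox2-/- array and 10.69 on the wildtype array (−0.18).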

How the data were processed

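The authors hybridized GeneChip Mouse Gene 1.0 ST arrays with 200 ng RNA each. In JMP Genomics 4.0 they took logarithms of the perfect-match signals, made the 2 distributions equal by quantile normalization and summarized each gene with a log-linear model. Their custom CDF (version 14) placed probes into Entrez genes. The deposited table has 1 log2 value per gene and array, the base being taken from the range of the values and the study's log2 ratios. Background correction and build: not given in the sources used here. Coordinates are therefore given only for the RefSeq promoter windows. Of 21225 rows, 20239 had a gene symbol in the platform's annotation, updated through Entrez identifiers (RefSeq, GRCm38.p6), and the 986 without one were counted but not searched for potassium channel genes. Scanner files and probe values were not used here. Differences were computed as Shox2-/- minus wildtype. The trend was a lowess fit over all genes (span 0.3, 3 iterations), and the code was tested on simulated data. The number of arrays, 1 per genotype, limits the precision.

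Members, lists and thresholds were chosen with earlier results of these data known. Named are genes past a threshold, the 2 highest and 2 lowest differences per group among genes above the receptor level on at least 1 array, and 23 genes of heart repolarization from a list of 24 (1 is not reported here). These are 39 genes, and others were named after their values were seen. Python 3.11.15, numpy 2.4.6, pandas 2.3.3, statsmodels 0.14.6 and matplotlib 3.10.9 were used.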

Additional observations from a re-analysis of the deposited data

How the results depend on the processing

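No paired analysis was possible because each genotype had 1 array, for which reason leaving out replicates was impossible as well. With the trend removed, 1 potassium channel gene (Kcnh7) was past the upper threshold and 0 past the lower, against 0 and 1 as deposited. At a 2-fold change 0 genes were lower. Both counts were 0 and 1, as deposited, after subtraction of the array medians, with only the 62 genes above the receptor level or the 18 above the median level, with 0.4 both ways and with protein-coding genes only. The median of the 89 genes ran from 0.056 (trend removed) to 0.12. That of the calcium- or sodium-activated genes was −0.067 with the trend removed, against 0.038. With the trend removed 18 of the 89 genes changed sign. At the 99th percentile of receptor genes, 25 genes on the Shox2-/- array and 32 on the wildtype array lay above background, against 52 and 60. The planned choice among rows sharing a symbol had nothing to act on, as every symbol had 1 row. Signal near background limits the 27 genes that lay above the receptor level on neither array, and a small difference there was not detectable.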

Other observations

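Other ion channel families, chosen by symbol, are set beside the potassium channel genes as a description of these 2 arrays. Their counts above 0 stand beside 54.9% of all genes and 83.7% of receptor genes. The 25 calcium channel genes (Cacn) had a median difference of 0.11, with 19 above 0, and 0.040 with the trend removed. The 23 TRP channel genes had a median of 0.11, with 18 above 0, and 0.036 with the trend removed. The 11 sodium channel genes (Scn) had a median of 0.041, with 8 above 0, and −0.051 with the trend removed, and 1 of them lay above the receptor level on the Shox2-/- array and 3 on the wildtype array. The 7 chloride channel genes (Clcn) had a median of −0.055, with 3 above 0 and 1 at or below −0.4, and with the trend removed their median was 0.0090, with 4 above 0 and none at or below −0.4. No difference between these families and the potassium channel genes was tested.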
